A study of Homo sapiens with 6 samples.

Results

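A set of 10 genes of the integrated stress response were followed in doxorubicin-resistant breast cancer cells with and without the natural compound cyperotundone (CYT). They were chosen by gene name, as 10 of the 58302 genes in the count table: ATF4, ATF3, DDIT3, CEBPB, DDIT4, SESN2, ASNS, CHAC1, TRIB3 and PPP1R15A. These genes and the gene lists below were chosen with earlier results of these data known, so their shares beside all genes are descriptive. The RNA-seq covered MDA-MB-231-DR cells, with 3 libraries from controls and 3 from cells given CYT. MDA-MB-231 is a triple-negative breast cancer line, and the DR derivative was kept in medium with a low concentration of doxorubicin, so that control and CYT libraries share the resistant background. CYT is a constituent of sedge (Cyperus rotundus). The dose and duration of CYT for the sequenced cells, and any vehicle in the controls, are not given in the sources used here. A group is 1 cell line, and the labels do not say whether libraries came from separate cultures, so the p-values measure the spread between these samples, which may be technical.

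The integrated stress response starts when a kinase (PERK, GCN2, PKR or HRI) phosphorylates the translation factor eIF2. Global protein synthesis then falls, while the mRNA of the transcription factor ATF4 is translated better. ATF4 protein activates genes for amino acid supply and further factors such as ATF3 and DDIT3 (CHOP), and PPP1R15A (GADD34) closes the loop by bringing a phosphatase to eIF2. Much of ATF4 control is at translation, and RNA counts do not measure it.

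Each control library held 14050849 to 17770102 counts and each CYT library 13056270 to 14106017. Within the control group the libraries correlated with r between 0.953 and 0.971 on log2 CPM (counts scaled to library size with TMM normalization). CYT replicates 1 and 3 correlated with r = 0.970, while CYT replicate 2 stood apart from them with r of 0.905 and 0.904. Results are therefore also given without it where that changes a call. The identity markers VIM, CD44, AXL, CAV1, MSN and EGFR had at least 191 counts in every library, and ESR1 and PGR had at most 4. Of the identity markers, VIM (−1.30, edgeR adjusted p = 0.00535) and EGFR (−2.65, 0.00186) were nevertheless lower with CYT. AXL (−0.82, 0.0444) lost its call whichever library was left out, with edgeR adjusted p from 0.0509 without CYT replicate 2 to 0.131 without CYT replicate 1. In sum, the summed level of that list was 4655 to 5052 CPM in control and 2307 to 2490 CPM in CYT libraries. CDH1 had 0 counts in every control and 6, 16 and 2 in CYT replicates 1 to 3. ERBB2 was present at 236 to 1327 counts. Of 10 markers of other cell types, CD3E and DCN were at 0 in every library, and the summed level of the list was 13.8 to 22.1 CPM in control and 9.12 to 9.99 CPM in CYT libraries. Of the 3 tested, CD14 was higher (2.43, edgeR adjusted p = 0.0157, and 0.0634 without control replicate 1), COL1A1 was lower (−2.16, 0.00264) and PECAM1 did not pass (−0.96, 0.181). Mitochondrially encoded genes took 2.41 to 3.58% of the counts in control and 3.46 to 8.56% in CYT libraries. The part of these shifts in the results was not tested. Fewer cells making an RNA and less RNA per cell cannot be told apart in bulk libraries.

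Promoter windows of ATF3, ASNS, CHAC1 and PPP1R15A hold a sequence of the kind that ATF4 or a related factor is known to bind. They are the member windows in which a match was found. With CYT, ATF3 rose and CHAC1 fell, while ASNS and PPP1R15A did not pass the test. Any part of the matches in these values was not tested. The windows run from 250 bases before to 50 after each RefSeq start on GRCh38.p14. The C/EBP-ATF response element was searched as TGATGNAA, and the cyclic AMP response element as TGACGTCA, both on either strand. Capitals mark the match in each 60-base stretch, written 5′ to 3′ on the strand of the gene.
ATF3: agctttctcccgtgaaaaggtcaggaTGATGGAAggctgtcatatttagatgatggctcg
ASNS: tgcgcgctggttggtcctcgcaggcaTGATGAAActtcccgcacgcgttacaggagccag
CHAC1: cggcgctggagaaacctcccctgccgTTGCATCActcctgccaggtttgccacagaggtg
PPP1R15A: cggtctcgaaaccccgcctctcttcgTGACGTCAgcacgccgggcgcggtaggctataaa

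The ATF3 stretch is chr1:212565190-212565249 on the plus strand, with the match 191 to 184 bases before the start. Its window, chr1:212565157-212565456, lies at the upstream end of a locus that runs to 212620777. Whether that start was used in these cells was not tested. The ASNS stretch is chr7:97872443-97872502 on the minus strand, with the match 68 to 61 bases before the start. The CHAC1 stretch is chr15:40953236-40953295 on the plus strand, where the C/EBP-ATF element reads on the opposite strand, 209 to 202 bases before the start. The PPP1R15A stretch is chr19:48872337-48872396 on the plus strand, with its cyclic AMP response element 58 to 51 bases before the start. TGATGNAA was found in 3 of the 17 promoter windows of the 10 genes and in 3.62% of all 35116 windows. TGACGTCA was found in 1 of the 17 and in 1.85% of all. The endoplasmic reticulum stress element (ERSE, a CCAAT box spaced from a CCACG box) was in 0 of the 17 and in 0.0769% of all. A match describes the letters in these windows and is not evidence of binding.

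All 10 genes passed the filter on low counts, and they did not move as a block. Between CYT and control, ATF3 and DDIT3 were higher and ATF4, CHAC1 and TRIB3 were lower by edgeR's quasi-likelihood test at an adjusted p under 0.05, while CEBPB, DDIT4, SESN2, ASNS and PPP1R15A did not pass. That is 5 of 10, beside 28.6% of the 15572 genes tested. The share was 2 of 10 higher beside 15.7% of all genes, and 3 of 10 lower beside 12.9%. With 1 library left out, 2 to 3 members were higher and 1 to 3 lower, beside 10.3 to 18.6% and 7.36 to 17.0% of all genes. ATF4 was the 1 still lower without control replicate 1 (1 of 10, beside 7.41%) or CYT replicate 3 (beside 7.64%). Each of the 5 also changed by more than 1 on the log2 scale, a criterion that 27.4% of all genes met together with the adjusted p. The median log2 fold change of the 10 was −0.12, beside 0.0064 over all genes tested. The groups did not overlap in 5 of 10 (2 with CYT above, 3 below), beside 46.1% of all genes (23.4% above, 22.7% below).

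**Figure D1:**
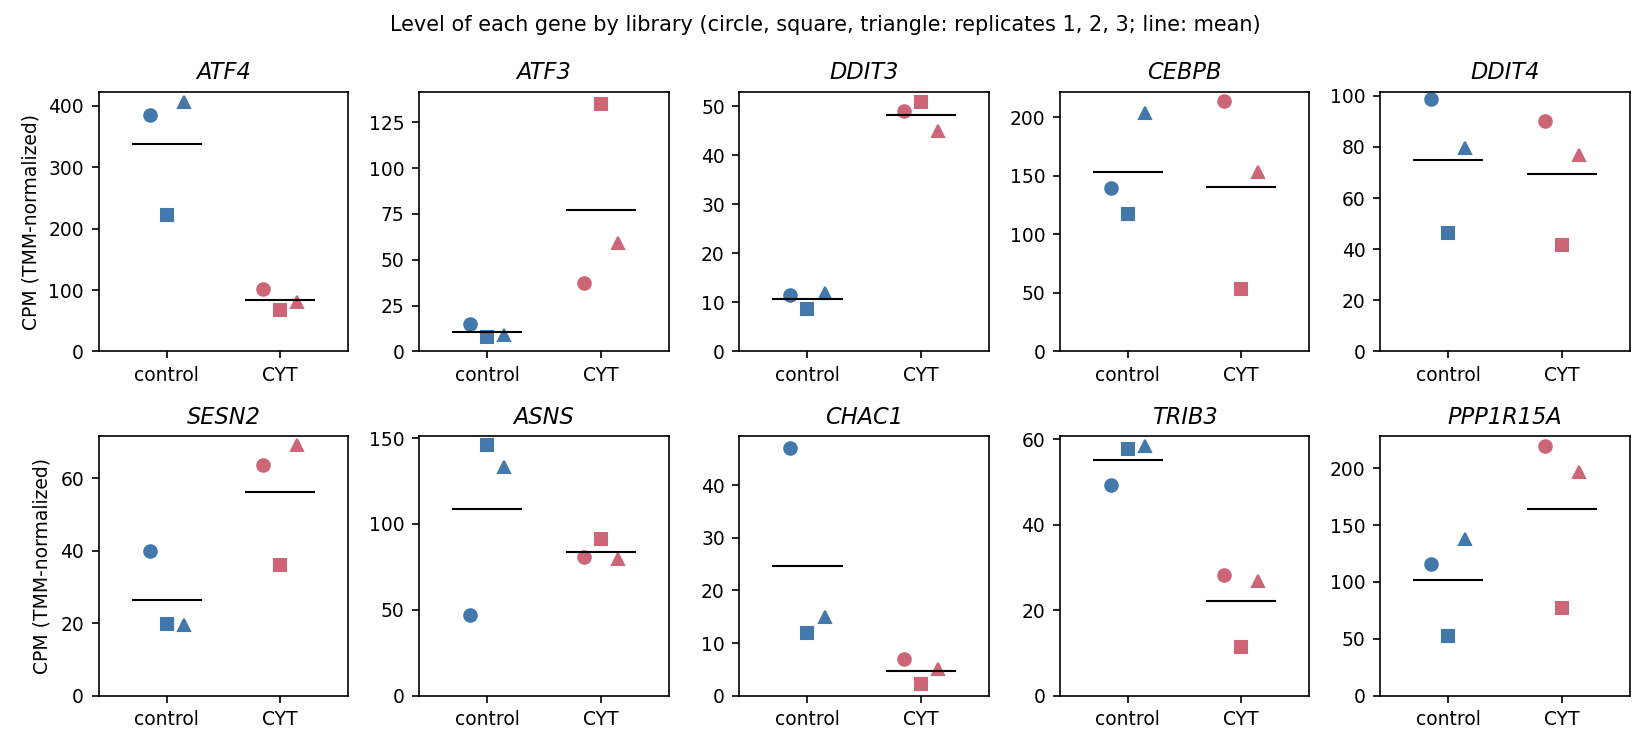
TMM-normalized CPM of the 10 genes in each of the 6 libraries, with the mean of each group (3 control, 3 CYT) as a bar. ATF3 and DDIT3 lie higher and ATF4, CHAC1 and TRIB3 lower in all CYT libraries than in any control library, while the groups overlap in the other 5 genes.

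Among the transcription factors, ATF4 (ENSG00000128272, chr22:39519695-39522685 in the files' hg38 coordinates, plus strand), the factor at the centre of the response, fell. Control replicates 1, 2 and 3 gave 6237, 4188 and 5658 counts, against 1454, 946 and 1013 in the CYT replicates, in the same order as for each gene that follows. No CYT library reached the lowest control. The mean level was 338 ± 101 CPM (SD, n = 3) in control and 83.3 ± 17.8 CPM in CYT, 4.06-fold lower, with a log2 fold change of −2.02 (SE 0.34, 95% interval −2.78 to −1.27, edgeR adjusted p = 0.00269). The processed pseudogene ATF4P3, which resembles ATF4 in sequence, had 102 to 167 counts in control and 14 to 30 in CYT libraries, which was 1.46 to 2.88% of the sum of both. Reads may be split between the genes, so ATF4 was also fitted with the pseudogene added, which gave −2.02 (edgeR adjusted p = 0.00267).

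ATF3 (ENSG00000162772, chr1:212565334-212620777, plus strand), a factor induced by many kinds of stress, changed in the opposite direction to ATF4. Its counts were 239, 147 and 127 in control and 531, 1903 and 747 in CYT libraries. The CYT libraries were all above the controls, and CYT replicate 2 was far above the other CYT replicates. The mean rose from 10.6 ± 3.71 to 77.2 ± 51.3 CPM, 7.31-fold, with a log2 fold change of 2.87 (SE 0.51, 95% interval 1.72 to 4.01, edgeR adjusted p = 0.00349). Without CYT replicate 2 the log2 fold change was 2.19, and ATF3 remained called.

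DDIT3 (ENSG00000175197, chr12:57516588-57520517, minus strand) encodes CHOP, the factor linked to cell death in prolonged stress. Its counts were 186, 162 and 167 in control and 696, 715 and 566 in CYT libraries. Both groups were tight and lay far apart. The mean was 10.7 ± 1.83 CPM in control and 48.2 ± 3.03 CPM in CYT, 4.51-fold higher, with a log2 fold change of 2.17 (SE 0.30, 95% interval 1.505 to 2.84, edgeR adjusted p = 0.00129). DDIT3 is the member whose file locus differs from GENCODE 29, where the gene ends at 57521737. In that longer model DDIT3 overlaps exons of MARS (355 bp) and MBD6 (58 bp), both on the opposite strand. The locus in the files ends before the start of MBD6. MARS ends at 57517569, so its overlap lies within the locus in the files as well. MARS, the methionyl-tRNA synthetase, fell (−1.20, edgeR adjusted p = 0.0200), a call lost without control replicate 1 (0.0810), control replicate 3 (0.0686), CYT replicate 1 (0.0648) or CYT replicate 3 (0.0626). By contrast, MBD6 did not pass (−1.16, edgeR adjusted p = 0.140, and 0.0150 with the replicate block). Both neighbours had values in the opposite direction to DDIT3. The strand setting of the counting is not given in the sources used here.

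CEBPB (ENSG00000172216, chr20:50190734-50192689, plus strand), a leucine zipper partner of ATF4 and CHOP, did not pass the test. Its counts were 2260, 2209 and 2833 in control and 3034, 753 and 1933 in CYT libraries. CYT replicate 1 was the highest of all 6 libraries and CYT replicate 2 the lowest. The log2 fold change was −0.13 (SE 0.47, 95% interval −1.17 to 0.91), from 153 ± 44.5 to 140 ± 80.8 CPM, and its sign turned under other settings.

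Since a ratio of 2 genes within a library does not depend on the scaling between libraries, DDIT3 and ATF3 were also set against ATF4, pairs chosen after their values were seen. The count ratio of DDIT3 to ATF4 was 0.030, 0.039 and 0.030 in control and 0.479, 0.756 and 0.559 in CYT libraries. It was 18.1-fold higher with CYT, a log2 difference of 4.17. The ratio of ATF3 to ATF4 was 26.1-fold higher, with 0.038, 0.035 and 0.022 in control and 0.365, 2.01 and 0.737 in CYT libraries. Without CYT replicate 2, where it was highest, the log2 difference of ATF3 to ATF4 fell from 4.71 to 4.05. Since ATF4 fell and the other members rose without overlap, the ratios had to separate too, and they are given as a description with no test.

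**Figure D2:**
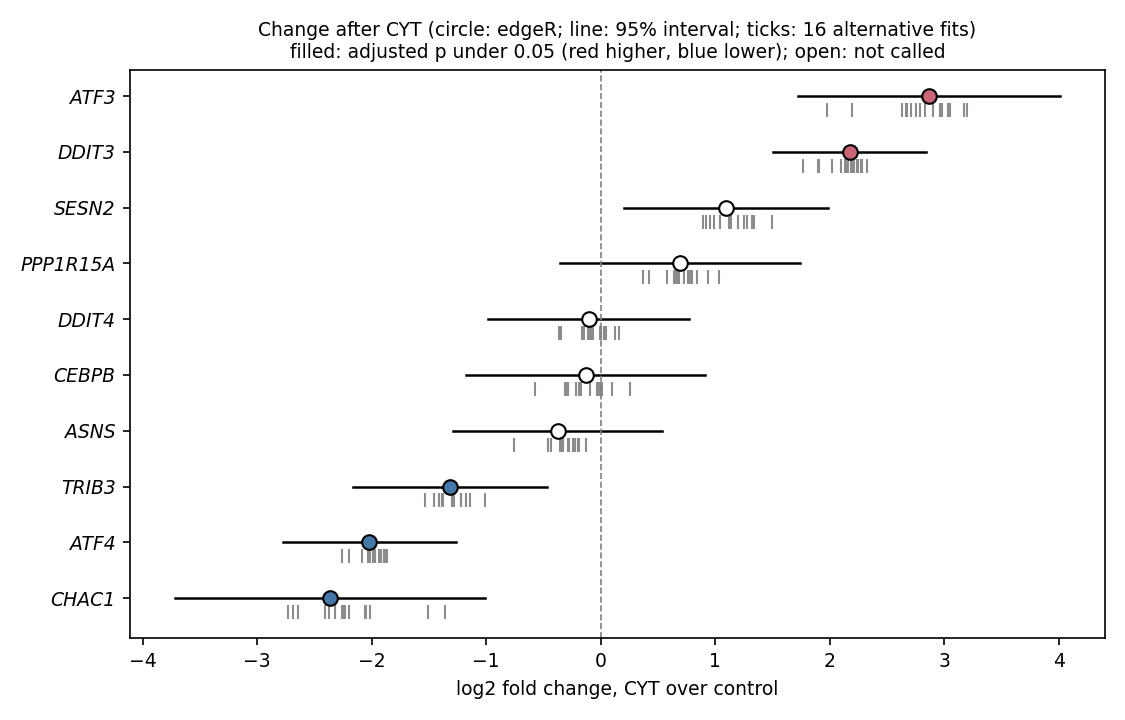
Log2 fold change of CYT over control for the 10 genes, with 95% intervals from edgeR's quasi-likelihood test over 3 libraries a group. The intervals of ATF3 and DDIT3 lie above 0, those of ATF4, CHAC1 and TRIB3 below 0 with an adjusted p under 0.05, and SESN2 (0.21 to 1.98) had an adjusted p of 0.0656.

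Among the feedback genes, TRIB3 fell and PPP1R15A did not pass the test. TRIB3 (ENSG00000101255, chr20:362835-397559, plus strand) is a pseudokinase induced by ATF4 and CHOP that in turn restrains them. Its counts were 797, 1088 and 814 in control and 400, 159 and 339 in CYT libraries. The controls lay close together, and CYT replicate 2 was the lowest. The mean was 55.2 ± 5.08 CPM in control and 22.1 ± 9.38 CPM in CYT, with a log2 fold change of −1.32 (SE 0.38, 95% interval −2.17 to −0.47, edgeR adjusted p = 0.0279). The call was lost without control replicate 1 (edgeR adjusted p = 0.0579), control replicate 2 (0.0647), control replicate 3 (0.0827) or CYT replicate 3 (0.0582), with log2 fold changes between −1.54 and −1.01 over all libraries left out.

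PPP1R15A (ENSG00000087074, chr19:48872392-48876057, plus strand) had 1878, 984 and 1917 counts in control and 3123, 1083 and 2476 in CYT libraries. Replicate 2 was the lowest in both groups, and CYT replicate 2 lay within the range of the controls. The mean was 102 ± 44.3 CPM in control and 164 ± 76.6 CPM in CYT, with a log2 fold change of 0.69 (SE 0.47, 95% interval −0.36 to 1.74, edgeR adjusted p = 0.3005). With the replicate number as a block and a correction for GC content and length together it was called (0.79, edgeR adjusted p = 0.0172). With the block alone it was not (edgeR adjusted p = 0.0526).

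CHAC1 (ENSG00000128965, chr15:40952962-40956519, plus strand), an enzyme that degrades glutathione, fell. Its counts were 761, 223 and 208 in control and 98, 32 and 65 in CYT libraries. Every CYT library was below every control, but control replicate 1 was 3.52 times the mean CPM of the other controls. The mean was 24.6 ± 19.5 CPM in control and 4.77 ± 2.33 CPM in CYT, 5.15-fold lower, with a log2 fold change of −2.36 (SE 0.61, 95% interval −3.72 to −1.01, edgeR adjusted p = 0.0175). Without control replicate 1 the value was −1.505 (edgeR adjusted p = 0.0670), and with CYT replicate 3 left out it was −2.38 (edgeR adjusted p = 0.0549), so the call was lost in both.

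ASNS (ENSG00000070669, chr7:97852118-97872542, minus strand), the asparagine synthetase and a classical ATF4 target, did not pass the test on its own counts. These were 760, 2750 and 1859 in control and 1151, 1285 and 1002 in CYT libraries. Control replicate 1 was below every CYT library, whereas control replicates 2 and 3 were above them. The log2 fold change was −0.38 (SE 0.41, 95% interval −1.29 to 0.54, edgeR adjusted p = 0.524).

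The low ASNS count of control replicate 1 went with a high count of an annotated gene on the same strand. AC079781.5 (ENSG00000284707, chr7:97851688-97972985) spans ASNS and shares 1985 bp of exon with it. It had 1638, 49 and 38 counts in control and 42, 16 and 18 in CYT libraries, which was 68.3% of the sum of both genes in control replicate 1 and 1.23 to 3.52% elsewhere. The sum of both was 148, 149 and 136 CPM in control and 83.9, 92.4 and 80.9 CPM in CYT libraries. Summed, the controls lay together at 144 ± 7.18 CPM and did not overlap with CYT at 85.7 ± 5.97 CPM. The log2 fold change of the sum, added after the data were seen, was −0.75 (SE 0.26, 95% interval −1.34 to −0.16, edgeR adjusted p = 0.0573). It was called with the replicate block (edgeR adjusted p = 0.0296) and without CYT replicate 2 (0.0248). AC079781.5 alone gave −4.26 (edgeR adjusted p = 0.0391), but −0.55 (0.538) without control replicate 1, and it was not called without CYT replicate 1 (0.0684), 2 (0.0759) or 3 (0.114). How the counting divided reads between these genes is not given in the sources used here.

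**Figure D3:**
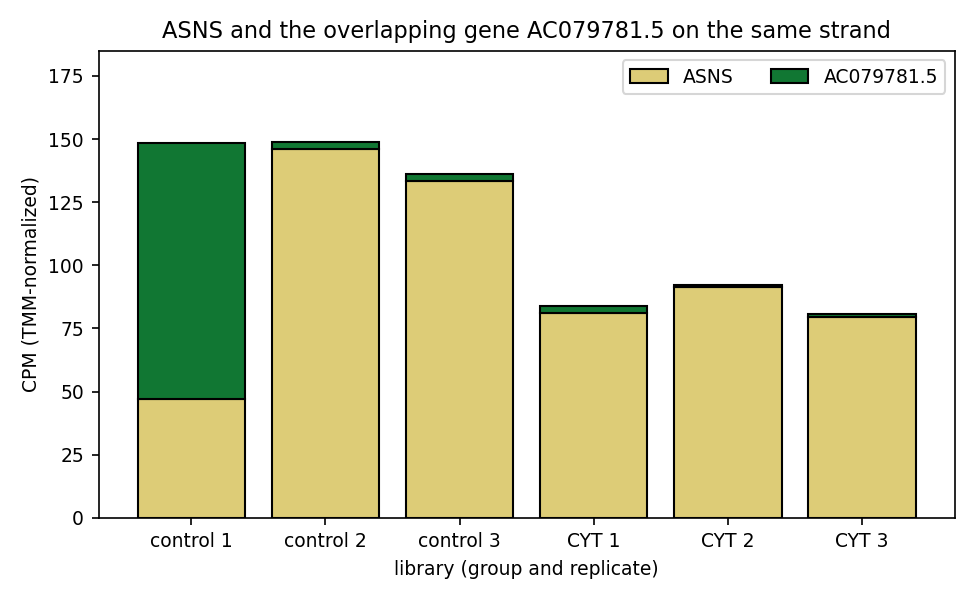
TMM-normalized CPM in each of the 6 libraries assigned to ASNS, to the overlapping AC079781.5 and to the sum of both. Control replicate 1 is low for ASNS and high for AC079781.5, and the sums are 136 to 149 CPM in control and 80.9 to 92.4 CPM in CYT libraries.

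The mTORC1 inhibitors DDIT4 and SESN2 gave different values. DDIT4 (REDD1, ENSG00000168209, chr10:72273920-72276036, plus strand) had 1595, 870 and 1112 counts in control and 1282, 586 and 969 in CYT libraries. The groups overlapped, with replicate 1 the highest and replicate 2 the lowest in both. The means were 74.9 ± 26.6 and 69.5 ± 25.1 CPM, with a log2 fold change of −0.11 (SE 0.39, 95% interval −0.98 to 0.77, edgeR adjusted p = 0.865).

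SESN2 (ENSG00000130766, chr1:28259527-28282491, plus strand), sestrin 2, also a leucine sensor, had 643, 372 and 272 counts in control and 905, 506 and 871 in CYT libraries. In CPM, control replicate 1 (39.8) was above CYT replicate 2 (35.9), and this was the one place where the groups overlapped. The mean was 26.3 ± 11.6 CPM in control and 56.2 ± 17.8 CPM in CYT, with a log2 fold change of 1.09 (SE 0.40, 95% interval 0.21 to 1.98, edgeR adjusted p = 0.0656). SESN2 was called with the replicate block (1.12, edgeR adjusted p = 0.0148), without control replicate 1 (1.497, 0.0397) and when CYT replicate 2 was left out (1.34, 0.0132). With the block, 6 members were called, beside 39.9% of all genes. Of these 3 were higher and 3 lower, beside 20% and 19.8% of all genes.

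Compared per length as FPKM, the order of the 10 genes changed. In control cells ATF4 (80.7 ± 21.0 FPKM) and CEBPB (77.7 ± 22) led, and these neighbours overlapped. PPP1R15A (24.4 ± 10.03) and DDIT4 (24.3 ± 7.30) came next, followed by TRIB3 (12.2 ± 1.78), ASNS (11.4 ± 6.04), SESN2 (7.47 ± 2.83) and CHAC1 (4.16 ± 3.06). DDIT3 (2.01 ± 0.265) and ATF3 (1.07 ± 0.307) were last. Neighbours in this order did not overlap between CEBPB and PPP1R15A, DDIT4 and TRIB3, and DDIT3 and ATF3.

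In CYT libraries ATF4, at 20.3 ± 4.10 FPKM, came after CEBPB (71.0 ± 40.3), PPP1R15A (39.7 ± 17.5) and DDIT4 (22.9 ± 7.66). SESN2 (16.2 ± 4.31), DDIT3 (9.28 ± 1.203), ASNS (8.74 ± 1.26), ATF3 (8.21 ± 5.96) and TRIB3 (4.85 ± 1.90) followed, and CHAC1 was last (0.831 ± 0.394). SESN2 and DDIT3, and TRIB3 and CHAC1, were the neighbours that did not overlap. The share of ATF4 in the summed FPKM of the 10 genes was 35.3, 30.0 and 32.8% in control and 9.38, 13.3 and 8.83% in CYT libraries.

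The departure of CYT replicate 2 was not alike in all 10 genes. It was the lowest CYT library in 7 genes and the highest in ATF3, DDIT3 and ASNS. Its CPM relative to the mean of CYT replicates 1 and 3 was 2.80 for ATF3, 1.14 for ASNS and 1.08 for DDIT3, whose annotated transcripts have 50.5, 44.6 and 50.3% GC. It was 0.292 for CEBPB (66.2% GC), 0.377 for CHAC1 (62.6%), 0.410 for TRIB3 (61.7%) and 0.370 for PPP1R15A (57.9%). The remaining values were 0.736 for ATF4 (55.3%), 0.541 for SESN2 (59.5%) and 0.498 for DDIT4 (61.2%). The 7 genes below 1 had a higher GC content than the 3 above 1, while the order within either set did not follow GC content throughout: PPP1R15A was lower than SESN2, DDIT4, TRIB3 and CHAC1. All 10 values come from the same 3 libraries. The part of GC content in the results was not tested beyond the corrected fit, in which ATF4, ATF3, DDIT3, CHAC1 and TRIB3 stayed called and SESN2 was also called (edgeR adjusted p = 0.0022).

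**Figure D4:**
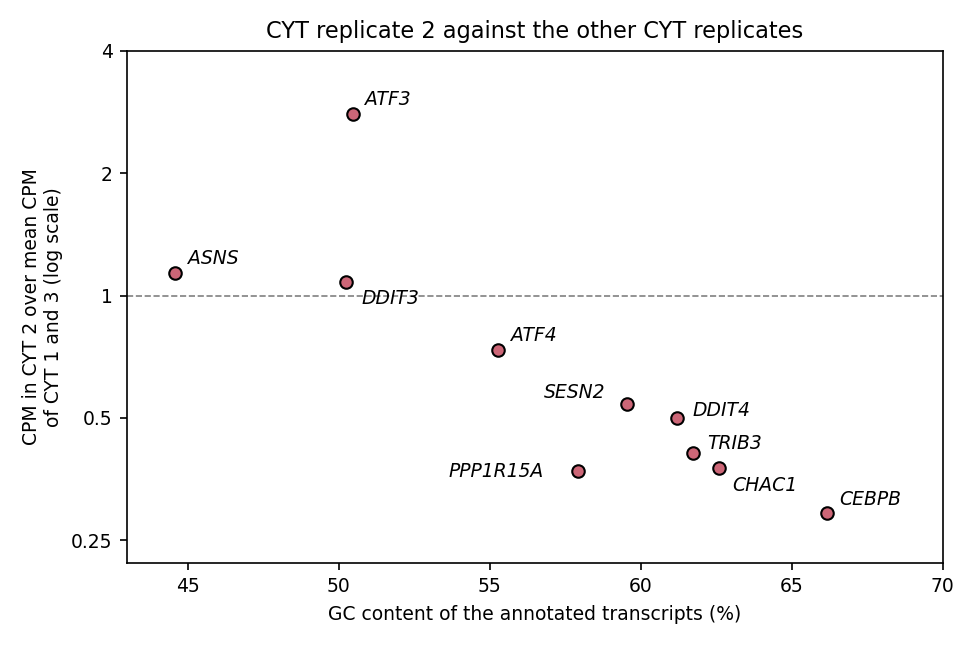
CPM of CYT replicate 2 divided by the mean of CYT replicates 1 and 3 (log axis) against the GC content of the annotated transcripts (%), 1 point for each of the 10 genes. ATF3, DDIT3 and ASNS, at 44.6 to 50.5% GC, lie above 1 and the 7 genes with higher GC content lie below 1.

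Of 12 relatives of the 10 genes, 11 were tested, 3 rose (27.3%) and 0 fell, beside 15.7% and 12.9% of all genes. With the correction for GC content and length 5 rose (45.5%) and 2 fell (18.2%), beside 23.3% and 23.2%, the 2 being CHAC2 (edgeR adjusted p = 0.00921) and TRIB2 (0.0196). SESN1 (2.10, edgeR adjusted p = 0.00629) and SESN3 (2.50, 0.00448), the other sestrins, rose. Without CYT replicate 2, the highest of the 6 libraries for SESN3, its log2 fold change was 1.82. Also higher was CEBPA (2.52, 0.0119), a differentiation factor of the C/EBP family, although CEBPA lost its call without control replicate 1 (0.0535). The remaining 8 relatives tested did not pass, namely ATF5, CEBPD, CEBPG, JDP2, CHAC2, TRIB1, TRIB2 and PPP1R15B, with log2 fold changes between −0.62 and 1.27. ATF5 (1.27, edgeR adjusted p = 0.143), the closest homologue of ATF4, had 610, 587 and 498 counts in control and 1674, 226 and 1493 in CYT libraries. CYT replicate 2 was the lowest and the other CYT replicates the highest, and without it ATF5 was called (1.76, edgeR adjusted p = 0.000898), as was CEBPD (0.96, 0.0398). DDIT4L had at most 5 counts and was not tested.

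Within libraries, count ratios of a member to a relative were compared by a two-sided exact permutation test, which cannot go below p = 0.1 (0.163 after Benjamini-Hochberg adjustment over 13 ratios, with both ratios to ATF4 counted). CEBPB to CEBPA was 12.1, 11.5 and 9.64 in control and 1.76, 2.41 and 1.504 in CYT libraries, a log2 difference of −2.57 without overlap (exact p = 0.1). ATF4 to ATF5 (−2.80) and TRIB3 to TRIB1 (−0.91) and TRIB2 (−0.82) were also lower in every CYT than in every control library, and ATF3 to JDP2 (3.63) was higher. CEBPA, ATF4, TRIB3 and ATF3 did not overlap between groups on their own, so the ratios that hold them are not separate evidence. Leaving out CYT replicate 2 moved ATF4 to ATF5 to −3.61, TRIB3 to TRIB2 to −0.38 and ATF3 to JDP2 to 1.93. In that library JDP2 had only 5 counts, ATF5 had 226 and ATF3 had 1903. The part of each gene in these moves was not tested. CEBPB to CEBPD (−0.99, exact p = 0.1) was lower without overlap, whereas CEBPB to CEBPG (−0.66, exact p = 0.9) and PPP1R15A to PPP1R15B (0.53, exact p = 0.5) overlapped between groups. With 1 library left out, CEBPB to CEBPG turned to 0.22 (without CYT replicate 2), and PPP1R15A to PPP1R15B ran from 0.028 (without control replicate 2) to 1.12 (without CYT replicate 2). SESN2 to SESN1 (−0.85, exact p = 0.5) and SESN2 to SESN3 (−1.24, exact p = 0.3) also overlapped, as did CHAC1 to CHAC2 (−1.79, exact p = 0.3). These were −0.15 and −0.46 without CYT replicate 2 and −0.99 without control replicate 1. The test does not use the replicate numbers. Within same-numbered libraries PPP1R15A to PPP1R15B was higher with CYT in 3 of 3 (log2 differences 0.67, 0.36 and 0.57). CHAC1 to CHAC2 (−2.50, −1.96 and −0.92) and SESN2 to SESN3 (−1.49, −2.01 and −0.23) were lower in 3 of 3, where a paired exact test of 3 pairs cannot go below p = 0.25.

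The rest of the pathway was read from 6 lists of 108 genes, of which 104 were tested. In these, 10 genes rose (9.62%) and 17 fell (16.3%), beside 15.7% and 12.9% of all genes, and the median log2 fold change was −0.26. With the replicate block 14 rose (13.5%) and 31 fell (29.8%), beside 20% and 19.8% of all genes. With the correction for GC content and length 22 rose (21.2%) and 37 fell (35.6%), beside 23.3% and 23.2%. The surplus of lower genes was not present under every setting. Genes averaging 5 CPM or more gave 11 higher (11%, beside 12.8% of all genes) and 12 lower (12%, beside 12.2%). Protein-coding genes alone gave 11 higher (10.6%, beside 13.7%) and 12 lower (11.5%, beside 12.2%). Upper-quartile normalization gave the same counts, with 10.6% higher beside 18.5% and 11.5% lower beside 10.4%. DESeq2 gave 12 higher (11.5%, beside 18.8%) and 21 lower (20.2%, beside 15.1%). Without a filter on low counts, 11 rose (10.2%, beside 9.2%) and 19 fell (17.6%, beside 6.81%). The fits of log2(FPKM + 1) and log2(FPKM + 0.1) gave 17.3 and 16.3% lower, beside 12.99 and 12.7%. Higher were 10.6% in each, beside 15.2 and 15.7%. Without CYT replicate 2, 16 rose (15.4%) and 30 fell (28.8%), beside 18.6% and 17.0% of all genes. Without control replicate 1, 7 rose (6.67%) and 8 fell (7.62%), beside 10.9% and 7.41%. Leaving out control replicate 3, CYT replicate 1 or CYT replicate 3 gave 7, 10 and 9 higher (6.67, 9.62 and 8.57%), beside 10.3, 12.3 and 12.2% of all genes. In each of these fits 9 were lower (8.57 to 8.65%), where 7.36 to 8.48% of all genes were lower. Without control replicate 2, 8 rose (7.62%) and 14 fell (13.3%), beside 13.1% and 10.2%.

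The tRNA synthetase targets of ATF4 had 6 of 14 lower (42.9%, beside 12.9% of all genes) and 0 higher, with a median of −0.81. With the block 9 were lower (64.3%, beside 19.8%). Without CYT replicate 2, 10 were lower (71.4%, beside 17.0%). Leaving out each other library gave 3 to 4 (21.4 to 28.6%), beside 7.36 to 10.2% of all genes. With the correction for GC content and length 10 were lower (71.4%, beside 23.2%) and 1 higher (7.14%, beside 23.3%). AARS (−2.58, edgeR adjusted p = 0.00107), GARS (−1.90, 0.0019) and the tRNA exporter XPOT (−1.82, 0.00498) fell most. Of 19 amino acid genes tested, 5 fell (26.3%) and 1 rose (5.26%), beside 12.9% and 15.7% of all genes, with a median of −0.60. The glutamine transporter SLC38A2 (−1.71, edgeR adjusted p = 0.00777), GPT2 (−1.40, 0.038) and PYCR1 (−1.25, 0.0372), which makes proline, were lower, and PCK2 (1.28, 0.0284), the mitochondrial PEP carboxykinase, was higher. With the block, 8 fell (42.1%) and 2 rose (10.5%), beside 19.8% and 20% of all genes. With 1 library left out, from 1 (5%, beside 7.41% of all genes, without control replicate 1) to 6 (31.6%, beside 17.0%, without CYT replicate 2) fell, so that the share without control replicate 1 was below that of all genes. PCK2 kept its call only without CYT replicate 2 among the 6 libraries left out, with edgeR adjusted p from 0.0686 to 0.112 without the others. GPT2 lost it without control replicate 1 (0.129), 2 (0.0544) or 3 (0.0672) or CYT replicate 1 (0.111), and PYCR1 without control replicate 1 (0.136) or 3 (0.0813) or CYT replicate 1 (0.109). GPT2 and PYCR1 also lost their calls with upper-quartile normalization (0.0518 and 0.0517), among genes averaging 5 CPM or more (0.0546 and 0.0539) and among protein-coding genes alone (0.0535 and 0.0540).

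The upstream list held 22 genes for eIF2, its kinases, phosphatases and exchange factor, and others such as DELE1, OMA1 and GCN1. Of the 22, 2 fell (9.09%) and 0 rose, beside 12.9% lower and 15.7% higher over all genes. These were EIF2B3 (−1.75, edgeR adjusted p = 0.00342), a subunit of the exchange factor, and DELE1 (−1.27, 0.0133), which relays mitochondrial stress to HRI. DELE1 lost its call without control replicate 3 (edgeR adjusted p = 0.0535) or CYT replicate 3 (0.0593). With the block 7 fell (31.8%), beside 19.8% of all genes. With the correction for GC content and length 10 fell (45.5%) and 2 rose (9.09%), beside 23.2% and 23.3%, and without CYT replicate 2, 9 fell (40.9%) and 1 rose, beside 17.0% and 18.6%. Among the other stress targets, KLHL24 (2.67, edgeR adjusted p = 0.00263) and the death receptor TNFRSF10B (1.14, 0.0142) rose and EIF4EBP1 (−1.92, 0.0178), a repressor of cap-dependent translation, fell, out of 22 tested (9.09% higher, 4.55% lower). With the block 3 rose (13.6%) and 4 fell (18.2%), beside 20% and 19.8% of all genes. TNFRSF10B was not called without control replicate 3 (edgeR adjusted p = 0.0813), nor EIF4EBP1 without control replicate 1 (0.0657), control replicate 3 (0.0615) or CYT replicate 1 (0.0535).

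In the other arms of the unfolded protein response, 4 of 20 rose (20%) and 3 fell (15%), with a median of 0.32, beside 15.7% and 12.9% of all genes. The chaperone gene DNAJB9 (2.05, edgeR adjusted p = 0.00577), the sensor ERN1 (1.97, 0.002) and EDEM1 (1.26, 0.0218), which acts in the disposal of misfolded proteins, were higher. HERPUD1 (−1.65, edgeR adjusted p = 0.00341), CREB3L2 (−1.29, 0.0104) and SDF2L1 (−1.16, 0.041) were lower. With the block 6 rose (30%) and 3 fell (15%), beside 20% and 19.8% of all genes. With the correction for GC content and length 8 rose (40%) and 4 fell (20%), beside 23.3% and 23.2%. Leaving out 1 library gave 2 to 5 higher (10 to 25%), beside 10.3 to 18.6% of all genes. It gave 1 to 4 lower (5 to 20%), beside 7.36 to 17.0%. SDF2L1 was not called with upper-quartile normalization (edgeR adjusted p = 0.0622), among genes averaging 5 CPM or more (0.0608) or among protein-coding genes alone (0.0607). EDEM1 lost its call without control replicate 1 (edgeR adjusted p = 0.0806) or 3 (0.0957), and CREB3L2 without CYT replicate 3 (0.0503). With 1 library left out, SDF2L1 kept it only without CYT replicate 2, with edgeR adjusted p from 0.0532 to 0.120 without the others.

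**Figure D5:**
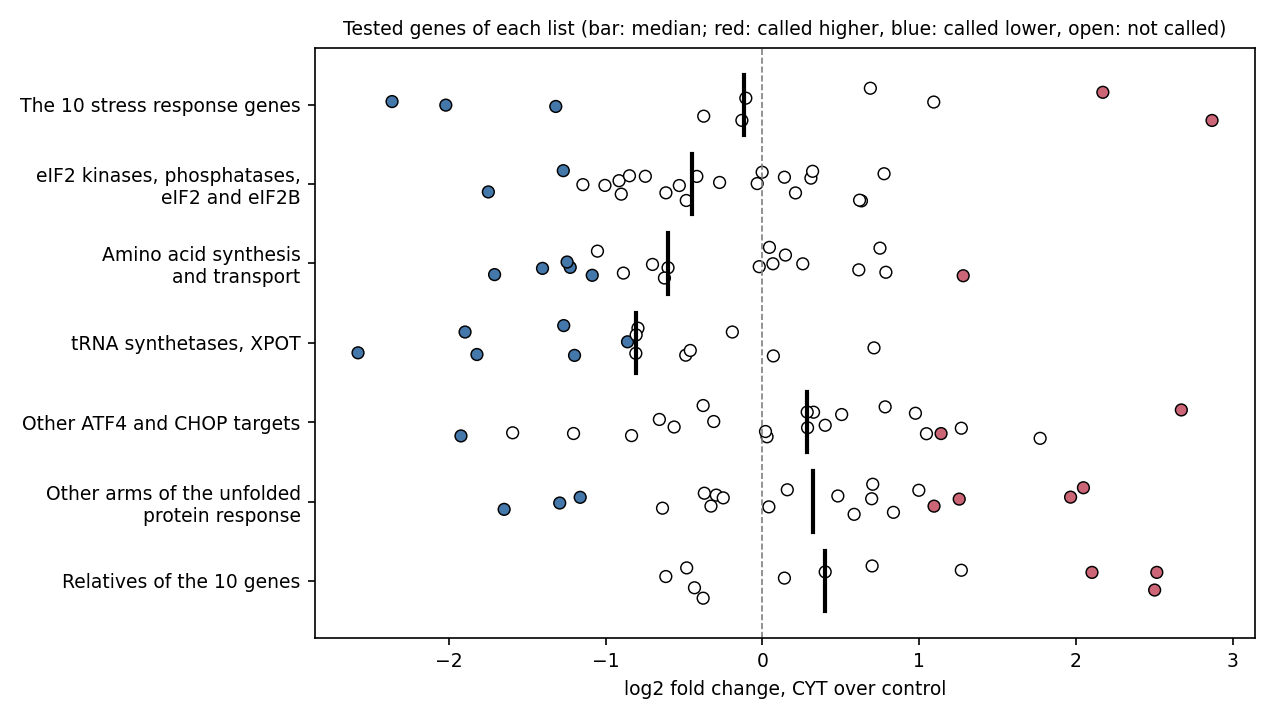
Log2 fold change of CYT over control for each tested gene in the 10 members and the 6 other lists, with the median of each list as a bar and genes with an edgeR adjusted p under 0.05 in colour. The medians run from −0.81 for the tRNA synthetase targets to 0.40 for the relatives of the members.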

How the data were processed

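RNA-seq of 3 control and 3 CYT-treated MDA-MB-231-DR libraries was used, grouped and numbered by the sample labels. The authors separated mRNA, aligned reads with Hisat2 to hg38, and deposited raw counts per gene and FPKM values from Stringtie. FastQC 0.12.1 is listed in the submitters' processing notes. The counting program, its annotation and its strand setting are not given in the sources used here.

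Counts were tested with edgeR 4.0.16 in R 4.3.3 (TMM, filterByExpr with a minimum count of 10, quasi-likelihood test between CYT and control) on 15572 genes, with Benjamini-Hochberg adjustment over all of them and a call at an adjusted p under 0.05. The SE of a log2 fold change was derived from its F statistic. Deposited FPKM values, which scale by length, were used for levels between genes and, as log2(FPKM + 1) and log2(FPKM + 0.1), in limma 3.58.1. Ratios of counts used 0.5 as pseudocount and exact permutation tests. Total counts ran from 13056270 to 17770102 a library. The biological coefficient of variation was 37.5%. Replicates differed by a chi-square per gene of at least 25.0, so none was counted as a copy. Transcript GC content, length and overlaps came from GENCODE 29. For 9 of 10 members the files' locus equalled it.

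Alternatives were upper-quartile normalization, DESeq2 1.42.0, genes without any filter, genes averaging 5 CPM or more, both FPKM fits, protein-coding genes only, a replicate block, a correction for GC content and length (with and without the block), and leaving out each library. Same-numbered libraries deviated together, with correlations of 0.188, 0.458 and 0.124, each over 0.1, which met the criterion for pairs. The edgeR test and the permutation tests were nevertheless unpaired, and the pairs entered as the replicate block among the alternatives. The criterion rests on the numbers in the labels and this check alone, and control 1 with CYT 3 (0.303) and control 3 with CYT 1 (0.201) were higher than same-numbered pairs 1 and 3. On simulated counts for 15189 genes, the test recovered 124 of 200 genes changed by 2 on the log2 scale, with 10 false calls.

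The members and the gene lists were chosen with earlier results of these data known. Named were all members, their relatives, overlapping genes and pseudogenes with a mean of at least 10 counts in either group, and in each other list the 3 highest and the 3 lowest log2 fold changes among called genes. The sums of overlapping loci and the ratios to ATF4 were added after the data were seen.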

Additional observations from a re-analysis of the deposited data

Results flagged for a closer look

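CEBPB-AS1, an annotated antisense gene that shares 231 bp with CEBPB and lies outside the comparisons above, had counts of 21, 9 and 15 in control and 40, 93 and 32 in CYT libraries. It was noted because its signal was above the level in the control libraries, with a log2 fold change of 2.07 (SE 0.57, edgeR adjusted p = 0.0236), while CEBPB itself did not pass. The call was lost without control replicate 2 (edgeR adjusted p = 0.0682), control replicate 3 (0.0709) or CYT replicate 2 (0.0504). The strand setting of the counting is not given in the sources used here, so reads within the shared 231 bp cannot be told apart if strand was not used. CYT replicate 2 was the highest library for CEBPB-AS1 (93 counts) and the lowest for CEBPB (753 counts).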

How the results depend on the processing

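ATF4, ATF3 and DDIT3 kept their direction and call under all 16 alternatives, with log2 fold changes of −2.26 to −1.87, 1.98 to 3.19 and 1.77 to 2.32. CHAC1 was called in 14 and TRIB3 in 12 of them, SESN2 in 9 and PPP1R15A in 1. The number of members called higher was 4 with the replicate block and the correction for GC content and length together, beside 22.6% of all genes, and 2 to 3 with 1 library left out. The number called lower was 1 to 3 with 1 library left out, and 1 without control replicate 1 or without CYT replicate 3.

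Of the pathway genes, 22 were higher and 37 lower once GC content and length were corrected for, 19 (18.3%) and 39 (37.5%) with that correction and the replicate block together, beside 22.6% and 22.7% of all genes, and 31 lower (29.8%, beside 19.8%) with the replicate block alone. With 1 library left out, 7 to 16 were higher and 8 to 30 lower, the highest without CYT replicate 2. Beyond the calls given in the report, the block changed no call among the members. Among genes that were not called, signs turned. CEBPB was 0.014 with upper-quartile normalization and −0.57 to 0.25 with 1 library left out. DDIT4 was 0.050 by upper-quartile scaling, 0.00075 among genes averaging 5 CPM or more, 0.025 with the GC content and length correction, 0.034 with that and the block, and −0.37 to 0.16 with 1 library left out. JDP2 was −0.72 to 0.16 with 1 library left out. The cause was not tested.

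Over all genes, 4451 were called, against 2853 among genes averaging 5 CPM or more, 6210 with the block, 7252 with the GC content and length correction, 7049 with both, 5282 by DESeq2, and 2891 (without control replicate 3) to 5752 (without CYT replicate 2) with 1 library left out. Upper-quartile normalization moved the median of all genes from 0.0064 to 0.155 and the split from 2449 higher and 2002 lower to 2879 and 1624. The precision is limited by 3 libraries a group and a biological coefficient of variation of 37.5%.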
